A study of Mus musculus with 9 samples.

Results

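The dual-specificity phosphatases of MAP kinases were described here across 9 libraries of mouse aortic arch RNA. The 8 genes are Dusp1, Dusp2, Dusp4, Dusp5, Dusp6, Dusp8, Dusp10 and Dusp16, found by name among the 21989 genes of the expression table. The family was chosen by the deposited values of Dusp8, which were high in the model group only, so the levels of Dusp8 over the groups are a description and carry no test. The other 7 genes came with the family and were tested. All 8 passed the filter on low values, at least 1 FPKM in at least 3 libraries, as did 12895 genes in all. FPKM, the unit of every level below, divides a gene's fragments by its length and the library's total. Levels can thus be compared between genes as far as the lengths used are right.

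The high dose group was ApoE-/- mice on a high-fat diet that received ZCL, the study's abbreviation for the herb Ziziphora clinopodioides Lam., by gavage at 5.12 g/kg/day for 15 weeks. The model group was ApoE-/- mice on the same diet without ZCL. The high-fat diet is given as 15 weeks for both groups. No gavage is stated for the model group, so ZCL and gavage itself cannot be told apart between high dose and model. The control group was C57BL/6J mice on a standard diet, so genotype and diet differ together between model and control and cannot be told apart. Mice without apolipoprotein E lack it in every tissue and keep lipoprotein remnants in the blood, which makes them a common model of atherosclerosis (AS). Each group has 3 libraries, and ages, sexes and pooling of animals are not stated in the labels. Whether replicate libraries stem from different animals is not in the labels, so p-values cover the spread among the libraries alone, which may be technical.

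MAP kinases (ERK, JNK and the p38 kinases) are switched on when an upstream kinase adds phosphate to a threonine and a tyrosine of their activation loop. Dual-specificity MAP kinase phosphatases remove both phosphates and so end the signal. Several are themselves induced by the kinases they inactivate, which makes them feedback inhibitors and their transcripts common readouts of recent signalling. In arteries, MAP kinase signalling is known for its part in the growth and migration of smooth muscle cells, in endothelial responses to flow and in macrophage activation.

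The members divide into a nuclear, rapidly induced group (Dusp1, Dusp2, Dusp4 and Dusp5), a cytoplasmic ERK-directed group (Dusp6, with Dusp7 and Dusp9 outside the listed members) and a group directed mainly at JNK and p38 (Dusp8, Dusp10 and Dusp16). Promoter windows of 7 of the 8 members were found in the RefSeq table for GRCm38.p6. Shown first are the 250 bases before the start of Dusp8, on which the family was chosen, and of Dusp1, its most abundant member. Those of Dusp16, the member whose high dose libraries lay below all other libraries, and of Dusp5, with its pair of adjoining CArG boxes, follow. Capitals mark the cyclic AMP response element TGACGTCA (CRE), bound by CREB and ATF factors, its short site TGACG on either strand, and the CArG box bound by serum response factor.
Dusp8, chr7:142095285-142095534, minus strand: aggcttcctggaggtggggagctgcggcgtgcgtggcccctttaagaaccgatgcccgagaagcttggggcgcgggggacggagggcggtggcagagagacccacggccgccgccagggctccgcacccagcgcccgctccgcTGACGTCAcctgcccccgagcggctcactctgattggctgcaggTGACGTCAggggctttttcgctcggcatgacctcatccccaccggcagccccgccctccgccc
Dusp1, chr17:26508473-26508722, minus strand: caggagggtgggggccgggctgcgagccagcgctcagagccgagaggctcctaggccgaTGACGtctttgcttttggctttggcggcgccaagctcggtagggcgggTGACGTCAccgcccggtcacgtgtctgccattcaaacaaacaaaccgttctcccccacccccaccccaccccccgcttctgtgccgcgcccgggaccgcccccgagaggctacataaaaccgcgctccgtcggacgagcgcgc
Dusp16, chr6:134792629-134792878, minus strand: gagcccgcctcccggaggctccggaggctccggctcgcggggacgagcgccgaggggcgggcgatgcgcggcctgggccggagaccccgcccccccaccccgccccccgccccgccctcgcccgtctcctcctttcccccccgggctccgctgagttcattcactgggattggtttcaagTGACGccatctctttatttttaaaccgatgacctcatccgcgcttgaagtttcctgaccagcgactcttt
Dusp5, chr19:53528895-53529144, plus strand: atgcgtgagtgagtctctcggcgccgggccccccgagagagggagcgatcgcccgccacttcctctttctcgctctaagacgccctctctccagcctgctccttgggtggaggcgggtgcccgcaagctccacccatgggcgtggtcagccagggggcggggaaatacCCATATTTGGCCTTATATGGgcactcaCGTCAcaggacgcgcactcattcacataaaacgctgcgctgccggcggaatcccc

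Dusp8 held the full CRE at 2 places, beginning 107 and 63 bases before its start, and Dusp1 held it at 1 place, 143 bases before its start. The other 5 windows, those of Dusp2, Dusp5, Dusp6, Dusp10 and Dusp16, held no full CRE. Over all 32851 promoter windows of the table, each taken as the 250 bases before a start and read on both strands, 1.55% held a full CRE and 0.0304% held at least 2. The short site, which also lies within every full CRE, was in 17.8% of windows. It stood alone in Dusp1, 191 bases before the start, in Dusp16, 70 bases before it, and in Dusp5, 55 bases before it. The 2 CArG boxes of Dusp5 began 82 and 72 bases before its start, with 1.47% of windows holding at least 1 and 0.0183% at least 2. The AP-1 element TGANTCA, present in 6.75% of windows, was in none of these 7. These matches describe letters in a window and say nothing of binding in these tissues.

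**Figure D1:**
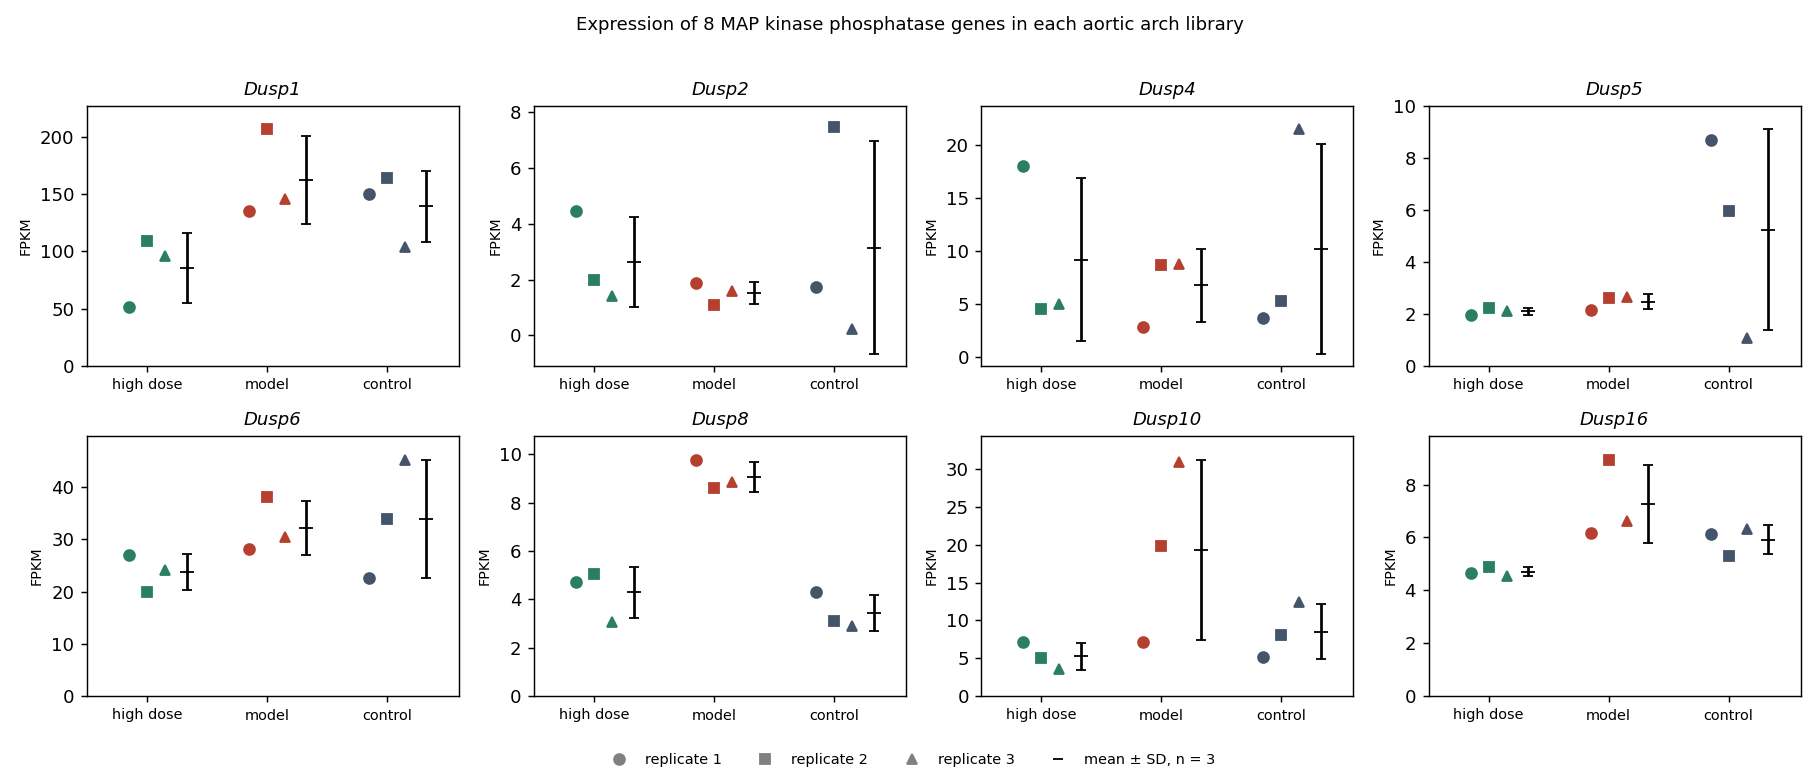
Level of each of the 8 genes in each library (vertical axis, FPKM) for the high dose, model and control groups, with replicates 1, 2 and 3 as circle, square and triangle and the group mean ± SD (n = 3) as a bar beside them. The 3 model libraries of Dusp8 sit between 8.61 and 9.78, above the other 6, while Dusp2, Dusp4 and Dusp5 each have a control library far above the other 2 or below them.

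Read depth, recovered as whole fragments from the steps between FPKM values, lay between 11653106 fragments in control 2 and 20679832 in model 1. Smooth muscle genes, which mark the arterial wall (Acta2, Myh11, Tagln, Cnn1, Smtn and Mylk), were present in every library at a summed level between 464 FPKM in high dose 1 and 4453 FPKM in model 1. Tissue beyond the vessel wall was present unevenly. Summed heart muscle genes stood at 22.2, 9603 and 15830 FPKM in high dose 1, 2 and 3, at 78.0, 37.6 and 45.5 FPKM in model 1, 2 and 3, and at 26300, 7167 and 22.0 FPKM in control 1, 2 and 3. Airway genes reached 24400 FPKM in high dose 2 and 7009 FPKM in control 2, and were at 87.4 FPKM or less in the other 7 libraries. Apoe, the gene knocked out, had 30.3, 93.7 and 25.4 FPKM in high dose, 18.9, 33.4 and 24.5 FPKM in model, and 829, 1006 and 339.9 FPKM in control libraries, in keeping with the labels.

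Of the 7 tested members, Dusp1, Dusp6 and Dusp16 were lower in every high dose library than in every model library, as were 10.9% of all genes tested. Dusp8, whose values chose the family, is left out of this count. Dusp10 averaged 5.24 ± 1.78 FPKM in high dose against 19.3 ± 12.0 FPKM in model (SD, n = 3 each). Dusp2, Dusp4 and Dusp5 varied more within the control group than between groups. None of the 7 tested members passed an adjusted p of 0.05 in any comparison, and neither did any of the 12895 genes. That is 0% called in high dose against model, 0% in model against control and 0% in high dose against control, by limma with Benjamini-Hochberg adjustment over all genes. Without adjustment, 1729, 821 and 701 genes had p under 0.05 in these 3 comparisons, the smallest adjusted p being 0.0883, 0.216 and 0.330. Of the 7 tested members, 3 had an unadjusted p under 0.05 in high dose against model (Dusp1, Dusp10 and Dusp16) and 0 did in each of the other comparisons. Adjusted p of the 7 lay between 0.301 and 0.906 in high dose against model, between 0.764 and 0.994 in model against control, and between 0.888 and 0.999 in high dose against control. The comparisons share libraries, so their values for a gene are not independent of each other.

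Where 3 libraries of one group all lay beyond the 3 of the other, the groups are called not overlapping. In high dose against model, 3 of the 7 tested members (Dusp1, Dusp6 and Dusp16) were not overlapping and lower, and 0 were higher. Over all genes tested, 10.9% were not overlapping and lower and 11.7% were not overlapping and higher. In model against control, 0 of the 7 were not overlapping, while 6.91% of all genes were so and higher and 9.06% were so and lower. In high dose against control, Dusp16 alone of the 7 was not overlapping and lower, against 5.02% of all genes, and 0 were higher, against 3.66%. The median log2 difference of the 7 was -0.43 in high dose against model, -0.028 in model against control and -0.45 in high dose against control, where the medians over all genes were 0.00080, -0.010 and 0.0022.

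**Figure D2:**
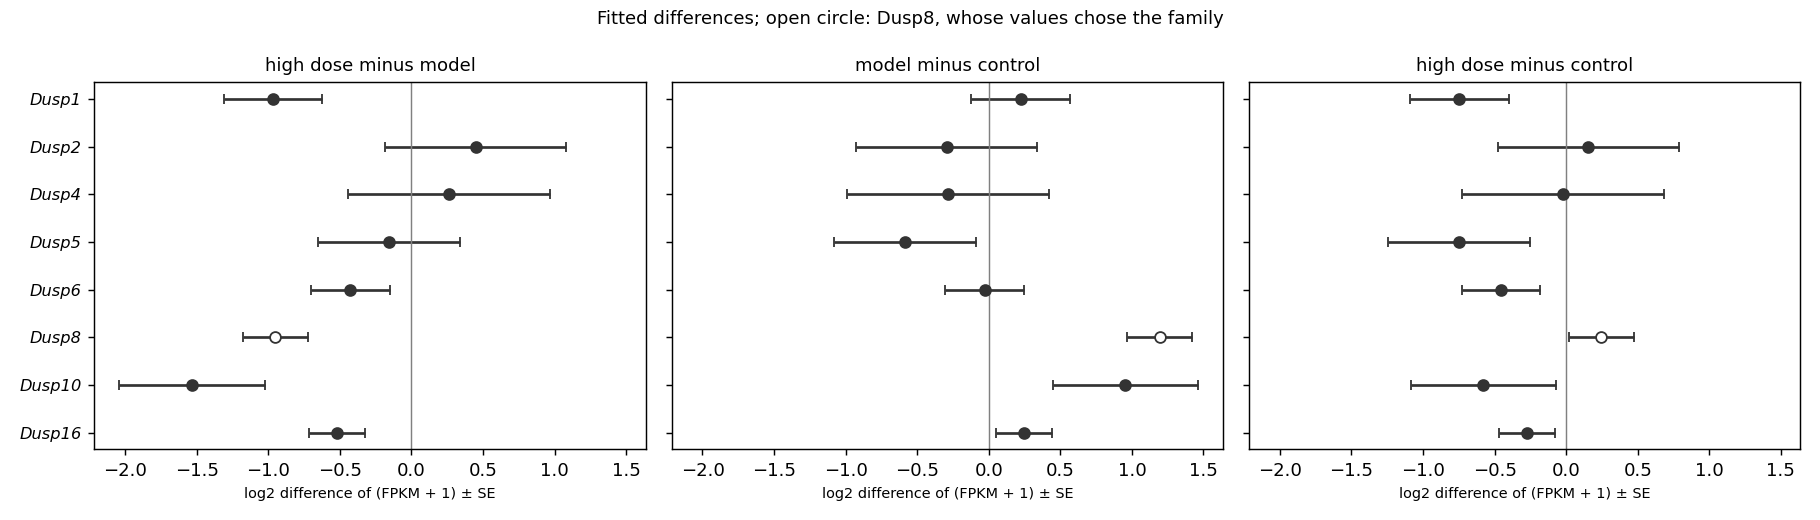
Fitted log2 difference of (FPKM + 1) with its standard error for each gene in high dose minus model, model minus control and high dose minus control. Dusp1, Dusp10 and Dusp16 lie left of 0 in the first panel at -0.97, -1.53 and -0.52, and the open circle is Dusp8, which has no test.

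Dusp8 dephosphorylates JNK and p38 and is known for its expression in brain and heart. It stood at 4.71, 5.07 and 3.07 FPKM in high dose 1, 2 and 3, at 9.78, 8.61 and 8.84 FPKM in model 1, 2 and 3, and at 4.28, 3.11 and 2.91 FPKM in control 1, 2 and 3. Every model library was above every other library, and high dose and control libraries overlapped. The lowest model value had a 95% Poisson interval of 8.01 to 9.24 FPKM. The highest value outside the model group, in high dose 2, had one of 4.57 to 5.60 FPKM. These intervals cover counting error only and do not test the gap, since Dusp8 was chosen for it. The Dusp8 levels rest on 401, 383 and 238 fragments in high dose, 1078, 767 and 692 in model, and 359, 193 and 197 in control libraries. The mean was 4.28 ± 1.06 FPKM in high dose, 9.08 ± 0.622 FPKM in model and 3.43 ± 0.743 FPKM in control (SD, n = 3 each). With log2(FPKM + 1) values, where the added 1 shrinks differences of weakly expressed genes, Dusp8 differed by -0.95 ± 0.227 (SE) in high dose minus model, 1.20 ± 0.227 in model minus control and 0.24 ± 0.227 in high dose minus control.

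Several marker sums also differed between the groups. Red cell genes summed to 2693, 2806 and 21260 FPKM in high dose, 64110, 38760 and 21370 FPKM in model and 15940, 13520 and 8840 FPKM in control libraries, so that the 3 model libraries were again highest. Chromaffin and sympathetic nerve genes, with Th, Dbh, Chga, Chgb, Prph and Snap25 as the 6 markers, ran the other way, at 2231, 161 and 7.48 FPKM in high dose, 2.48, 0.382 and 3.20 FPKM in model and 64.3, 539 and 125 FPKM in control libraries. Macrophage genes (Cd68, Adgre1, Csf1r, Cd14, Lyz2 and Mrc1) summed to 467, 565 and 2042 FPKM in high dose, 4760, 3164 and 1080 FPKM in model and 257, 634 and 167 FPKM in control libraries. Lyz2 gave most of this sum in every library. Lyz2, Cd68, Adgre1 and Csf1r were each highest in a model library, and Cd14 and Mrc1 in high dose 3. Of the 36 pairs of libraries, Dusp8 and the macrophage sum had the same order in 27, the most among 12 marker lists. The smooth muscle and red cell sums followed at 25 each. In bulk tissue, fewer cells of a type and less RNA per cell cannot be told apart, and the part of these tissues in the level of Dusp8 was not tested. Heart muscle differed too, and without the 4 libraries that hold over 100 FPKM of Myh6, the alpha myosin heavy chain of heart muscle (the Myh6-high libraries), Dusp8 differed by -0.82 ± 0.193 (SE) in high dose minus model and by 1.37 ± 0.193 in model minus control. That leaves high dose 1 and control 3 as lone libraries, assumed to vary like the model group.

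Dusp10, which inactivates JNK and p38 and restrains cytokine production by immune cells in mice, had the widest spread inside the model group among the members directed at those kinases. It stood at 7.12, 5.02 and 3.57 FPKM in high dose, 7.10, 19.8 and 31.0 FPKM in model and 5.14, 8.03 and 12.4 FPKM in control libraries. Model 2 and model 3 were above all other libraries, while model 1 lay just under high dose 1. The mean was 5.24 ± 1.78 FPKM in high dose, 19.3 ± 12.0 FPKM in model and 8.52 ± 3.64 FPKM in control (SD, n = 3 each). The log2 difference was -1.53 ± 0.508 (SE) in high dose minus model (limma adjusted p = 0.301) and 0.95 ± 0.508 in model minus control (limma adjusted p = 0.764). The model minus control value was 1.51 without model 1, 0.52 without model 3 and 0.39 without the Myh6-high libraries. Summed endothelial genes (Pecam1, Cdh5, Tie1, Vwf and Kdr) stood at 281.5, 205 and 345 FPKM in high dose, 388, 399.8 and 448 FPKM in model and 344, 391 and 392 FPKM in control libraries. Their sum ordered 31 of the 36 library pairs as Dusp10 did, the most among 12 marker lists. Single endothelial genes differed. Cdh5 and Tie1 were highest in model 3, as Dusp10 was. Pecam1 was highest in high dose 3, where Dusp10 was lowest, Vwf in control 1 and Kdr in control 3. White fat genes (Adipoq, Plin1, Lep and Retn) followed at 29 pairs. The endothelial sum also ordered 30 pairs as Dusp6 did and 29 as Dusp16 did. For Dusp6, the white fat sum had 30 pairs as well. The part of these tissues in the level of Dusp10 was not tested.

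Dusp16, a JNK-directed phosphatase with a long carboxy-terminal tail, was the steadiest member. Its highest library, model 2, had 1.97 times its lowest, high dose 3. It stood at 4.66, 4.90 and 4.54 FPKM in high dose, 6.19, 8.95 and 6.63 FPKM in model and 6.12, 5.30 and 6.32 FPKM in control libraries. All 3 high dose libraries lay below all 6 others, and model and control overlapped. The mean was 4.70 ± 0.181 FPKM in high dose, 7.26 ± 1.48 FPKM in model and 5.92 ± 0.545 FPKM in control (SD, n = 3 each). The log2 difference was -0.52 ± 0.196 (SE) in high dose minus model (limma adjusted p = 0.343), 0.24 ± 0.196 in model minus control (limma adjusted p = 0.852) and -0.28 ± 0.196 in high dose minus control (limma adjusted p = 0.888).

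Within the JNK and p38 group the balance of transcripts moved from library to library. Dusp8 made up 28.6%, 33.8% and 27.5% of the summed level of Dusp8, Dusp10 and Dusp16 in high dose, 42.4%, 23.0% and 19.0% in model and 27.6%, 18.9% and 13.5% in control libraries. Its share of the group therefore overlapped between all 3 groups, although its own level in the model group did not overlap with the others. In model 3, Dusp10 stood at 4.68 times Dusp16, against 1.15 times in model 1.

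Dusp1, the immediate early member that is induced by stress and by glucocorticoids and acts on p38, JNK and ERK in the nucleus, was the most abundant. It stood at 51.1, 109 and 96.3 FPKM in high dose, 136, 207 and 146 FPKM in model and 150.4, 164 and 104 FPKM in control libraries. Every high dose library was below every model library, while control 3 lay between high dose 2 and high dose 3. The mean was 85.5 ± 30.5 FPKM in high dose, 163 ± 38.4 FPKM in model and 139 ± 31.3 FPKM in control (SD, n = 3 each). The log2 difference was -0.97 ± 0.344 (SE) in high dose minus model (limma adjusted p = 0.327), 0.22 ± 0.344 in model minus control (limma adjusted p = 0.940) and -0.74 ± 0.344 in high dose minus control (limma adjusted p = 0.888). The lowest library, high dose 1, is also the one with the lowest smooth muscle sum and the highest chromaffin sum, and the part of these in its Dusp1 level was not tested.

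Dusp1 alone gave 42.9% to 74.3% of the summed level of the 8 genes. The sum was 119, 153 and 140.1 FPKM in high dose, 194, 295 and 236 FPKM in model and 202.5, 233 and 194 FPKM in control libraries. The high dose sums were below all others. Without Dusp1 the sums were 67.9, 43.7 and 43.8 FPKM in high dose, 58.0, 87.9 and 90.0 FPKM in model and 52.1, 69.1 and 89.8 FPKM in control libraries, and the groups overlapped.

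**Figure D3:**
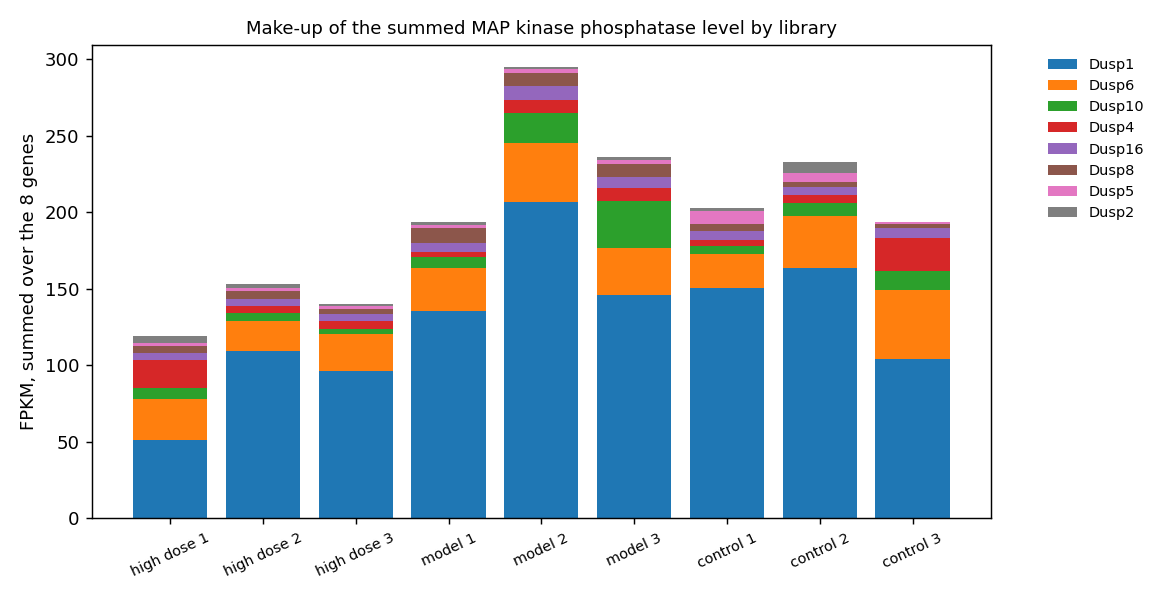
Stacked levels of the 8 genes in each library (vertical axis, summed FPKM), with high dose libraries at the left, model in the middle and control at the right. The sums reach 119 to 153 FPKM in high dose, 194 to 295 FPKM in model and 194 to 233 FPKM in control libraries, and Dusp1 fills most of each bar except in high dose 1, where it is 42.9%.

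Dusp2, a nuclear phosphatase known from activated lymphocytes, was the lowest and most uneven member. It stood at 4.47, 2.00 and 1.41 FPKM in high dose, 1.87, 1.09 and 1.61 FPKM in model and 1.73, 7.48 and 0.238 FPKM in control libraries, from 5 fragments in control 3 to 144 in control 2. The control libraries enclosed all the others. The 4 T cell genes in the table (Cd3e, Cd3d, Cd3g and Cd2) summed to 18.2, 4.72 and 2.08 FPKM in high dose, 6.06, 4.05 and 3.71 FPKM in model and 2.37, 45.4 and 0.880 FPKM in control libraries, with Cd2 listed at 0 in 6 of the 9. The 2 libraries highest in Dusp2, control 2 and high dose 1, were the 2 highest in these genes, control 3 was lowest in both, and 31 of 36 library pairs had the same order. The part of T cells in the Dusp2 values was not tested. Dusp2 differed on the log2 scale by 0.45 ± 0.633 (SE) in high dose minus model (limma adjusted p = 0.764) and -0.29 ± 0.633 in model minus control (limma adjusted p = 0.960).

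Dusp4 is a nuclear phosphatase induced through ERK. It stood at 18.1, 4.52 and 4.96 FPKM in high dose, 2.81, 8.74 and 8.78 FPKM in model and 3.64, 5.27 and 21.6 FPKM in control libraries. High dose 1 and control 3 were far above the libraries of their own groups, and all 3 groups overlapped. The brown fat genes Ucp1, Cidea, Dio2 and Elovl3 summed to 3787, 824 and 1140 FPKM in high dose, 714, 2408 and 2441 FPKM in model and 759, 1043 and 11600 FPKM in control libraries. Dusp4 and this sum ordered 35 of the 36 library pairs alike, the most among 96 relations computed between a member and a marker list. The median of those 96 was 19 pairs, the next highest value was 32, for Dusp4 and white fat genes, and the part of fat in the Dusp4 values was not tested. Dusp4 differed on the log2 scale by 0.26 ± 0.707 (SE) in high dose minus model (limma adjusted p = 0.888) and -0.29 ± 0.707 in model minus control (limma adjusted p = 0.968).

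**Figure D4:**
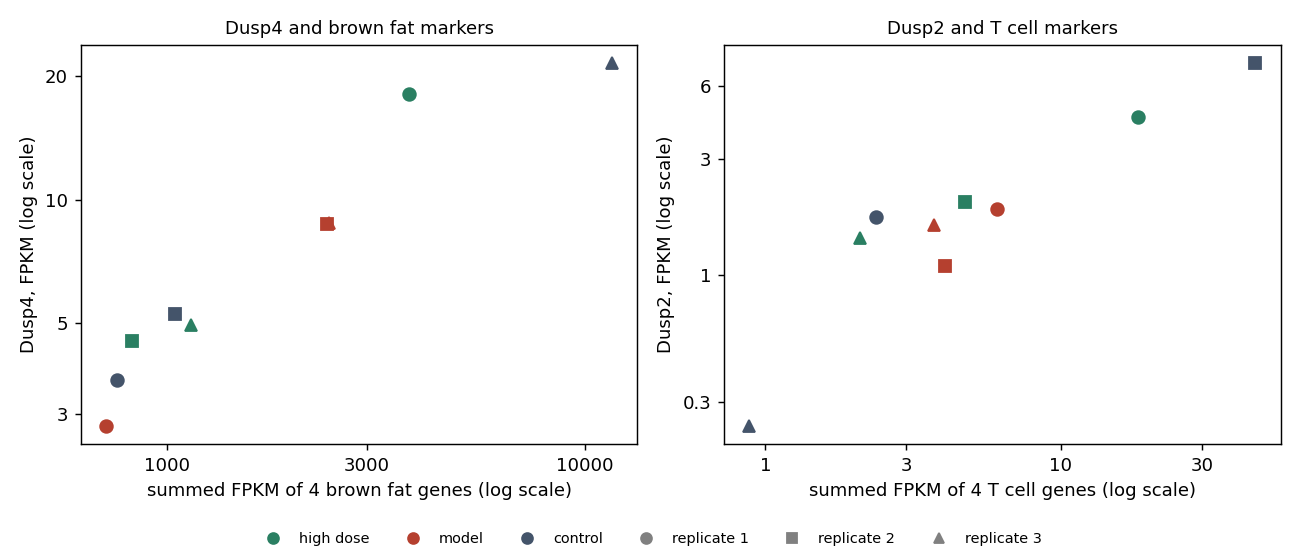
Left, Dusp4 against the summed level of 4 brown fat genes, and right, Dusp2 against that of 4 T cell genes, both in FPKM on log axes, with 1 point per library. Control 3 and high dose 1 are at the upper right for Dusp4 (21.6 and 18.1 FPKM), and control 2 and high dose 1 are there for Dusp2 (7.48 and 4.47 FPKM).

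Dusp5, a nuclear phosphatase that binds and inactivates ERK alone, had 1.96, 2.21 and 2.10 FPKM in high dose, 2.13, 2.59 and 2.65 FPKM in model and 8.68, 5.97 and 1.07 FPKM in control libraries. High dose and model libraries kept within a narrow band, and the control libraries lay on both sides of it. Only 16 fragments stood behind the lowest value, in control 3, and 161 behind the highest count. Dusp5 differed on the log2 scale by -0.16 ± 0.496 (SE) in high dose minus model (limma adjusted p = 0.906) and -0.59 ± 0.496 in model minus control (limma adjusted p = 0.856). The model minus control value was -0.14 without control 1, -0.37 without control 2 and -1.25 without control 3, and it turned to 0.74 without the Myh6-high libraries.

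Dusp6, the cytoplasmic phosphatase of ERK and a standard readout of its activity, had 26.9, 20.0 and 24.2 FPKM in high dose, 28.1, 38.1 and 30.5 FPKM in model and 22.5, 33.9 and 45.3 FPKM in control libraries. High dose lay below model without overlap, and the gap between the nearest libraries, 26.9 FPKM in high dose 1 and 28.1 FPKM in model 1, was small beside the spread within each group. The log2 difference was -0.43 ± 0.275 (SE) in high dose minus model (limma adjusted p = 0.487) and -0.028 ± 0.275 in model minus control (limma adjusted p = 0.994). Its near relative Dusp7 had 8.03, 17.5 and 8.78 FPKM in high dose, 13.0, 12.1 and 10.4 FPKM in model and 13.3, 17.6 and 8.99 FPKM in control libraries, with all groups overlapping. Dusp9, known from placenta and embryonic stem cells, was at 0.378 FPKM or less in every library, below the filter. It was listed at 0 in high dose 2, control 2 and control 3, where a count of 0 allows up to 0.0752, 0.0917 and 0.0839 FPKM at 3 fragments a library, counting error only.

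In order of the mean over the 9 libraries, the members stood at 129 FPKM (Dusp1), 29.9 FPKM (Dusp6), 11.0 FPKM (Dusp10), 8.71 FPKM (Dusp4), 5.96 FPKM (Dusp16), 5.60 FPKM (Dusp8), 3.26 FPKM (Dusp5) and 2.43 FPKM (Dusp2). Dusp1 was above Dusp6 in every library. From Dusp6 downwards, neighbours in this order overlapped in their ranges over the libraries. The ratio of highest to lowest library ran between 1.97 for Dusp16 and 31.5 for Dusp2.

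Where a gene overlaps one of the opposite strand, its level could take in reads of that neighbour. The strand setting of the counting is not given in the sources used here. In GENCODE M21 on GRCm38, Dusp8 (ENSMUSG00000037887.11) lies at chr7:142079490-142095843 on the minus strand and overlaps Gm32786, a noncoding gene of the opposite strand. Dusp1 (ENSMUSG00000024190.7, chr17:26505590-26562128, minus strand) overlaps Ergic1, Dusp10 (ENSMUSG00000039384.8, chr1:184013302-184075636, plus strand) overlaps 1700056E22Rik, and Dusp16 (ENSMUSG00000030203.17, chr6:134715468-134792625, minus strand) and Dusp5 (ENSMUSG00000034765.6, chr19:53529109-53542431, plus strand) each overlap an antisense gene. Dusp2 (ENSMUSG00000027368.6, chr2:127336159-127338376), Dusp4 (ENSMUSG00000031530.6, chr8:34807297-34819894) and Dusp6 (ENSMUSG00000019960.8, chr10:99263231-99267489), all on the plus strand, overlap no annotated gene of the opposite strand. The spans of Dusp1 and Dusp10 in this annotation begin far upstream of their RefSeq starts. Whether the overlaps with Ergic1 and 1700056E22Rik reach the bases counted was not examined. The gene lengths behind the FPKM also differ from the exon bases of this annotation. They were 1155 against 2473 for Dusp5, 1942 against 3311 for Dusp1 and 5112 against 7798 for Dusp16. Dusp8 alone of the members had the longer one behind its FPKM, 5216 against 4870. Comparisons of level between members depend on these lengths.

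The genes whose pattern over the 9 libraries was most like that of Dusp8, by Pearson's r of log2(FPKM + 1), were Myadm (0.924), Tmem220 (0.866), Bcorl1 (0.864), Phf13 (0.862) and Hsph1 (0.846). Myadm, a membrane protein gene, had 3.35, 2.40 and 1.37 FPKM in high dose, 5.96, 5.56 and 4.40 FPKM in model and 3.19, 2.27 and 2.07 FPKM in control libraries. Its model libraries lay above all others, a pattern favoured by picking it for likeness to Dusp8. Hsph1, a heat shock protein gene, had 20.8, 16.1 and 11.1 FPKM in high dose, 35.6, 66.7 and 23.9 FPKM in model and 9.33, 14.2 and 8.30 FPKM in control libraries. Most like Dusp1 were Klf2 (0.933), Krt80 (0.928), Tceb3 (0.926), Phactr4 (0.926) and Nfe2l2 (0.915). Klf2, the flow-induced transcription factor of endothelium, had 32.0, 85.4 and 87.4 FPKM in high dose, 129, 193 and 133 FPKM in model and 82.0, 175 and 75.9 FPKM in control libraries. Nfe2l2, which encodes the antioxidant regulator NRF2, had 16.5, 27.3 and 31.9 FPKM in high dose, 49.5, 49.6 and 38.3 FPKM in model and 36.2, 38.6 and 32.0 FPKM in control libraries. All genes were read from the same libraries, which differ in depth and tissue make-up, and the 9 points include the group differences. These values therefore describe likeness only. Among the members themselves, r was highest for Dusp10 and Dusp16 (0.734) and for Dusp1 and Dusp16 (0.720), and lowest for Dusp4 and Dusp5 (-0.540).

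Of 90 listed genes of the surrounding pathway, 84 passed the filter and 0 passed the test in either direction in any comparison with all 9 libraries weighted alike. Of the genes named here, 5 passed in high dose against model without the Myh6-high libraries and 3 in model against control with array weights. For high dose against model, 51 of the 84 were higher and 33 lower in sign, with a median log2 difference of 0.089. In model against control 34 were higher and 50 lower, with a median of -0.072. The 14 genes of the immediate early list stood nearest to the members in kind, since most are transcribed on the same stimuli as Dusp1. Of these 14, high dose against model had 6 higher and 8 lower, with 1 of 14 not overlapping and higher, beside 11.7% of all genes, 3 not overlapping and lower, beside 10.9%, and a median of -0.22. Jun, a subunit of AP-1 and a target of JNK, had 27.4, 55.7 and 46.9 FPKM in high dose, 107.7, 93.1 and 107.6 FPKM in model and 83.0, 86.4 and 30.8 FPKM in control libraries. High dose lay wholly below model, with a log2 difference of -1.28 ± 0.420 (SE) and a limma adjusted p of 0.295. Egr1, a transcription factor induced through ERK, had 47.0, 81.5 and 94.3 FPKM in high dose, 34.5, 23.6 and 35.6 FPKM in model and 252, 117 and 38.2 FPKM in control libraries, and model lay below control by -1.73 ± 0.605 (limma adjusted p = 0.713). The Egr1 difference was -1.10 without control 1 and -0.30 without the Myh6-high libraries.

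Of the 9 listed genes induced through ERK, 8 were higher in high dose against model and 1 lower, with 3 of 9 not overlapping and higher, beside 11.7% of all genes, 0 not overlapping and lower, beside 10.9%, and a median of 0.32, while 0 passed the test. Fosl1, the FRA1 subunit of AP-1, had 2.55, 4.09 and 4.78 FPKM in high dose, 1.03, 0.550 and 0.234 FPKM in model and 0.657, 0.592 and 0.451 FPKM in control libraries. Every high dose library was above all 6 others, and the log2 difference in high dose minus model was 1.58 ± 0.287 (SE) with a limma adjusted p of 0.159. Of the 6 tested Sprouty and Spred genes, which hold back the ERK path, 4 were higher and 2 lower in high dose against model. Spry1 had 18.1, 18.2 and 22.1 FPKM in high dose, 8.43, 11.5 and 17.1 FPKM in model and 16.5, 20.2 and 14.7 FPKM in control libraries, with a limma adjusted p of 0.352 in high dose against model. Epha4, an ephrin receptor gene, differed by -1.22 ± 0.718 (SE) in model minus control (limma adjusted p = 0.777), with control 1 at 16.3 FPKM and control 3 at 1.12 FPKM, and by -0.42 without control 1 and 0.20 without the Myh6-high libraries.

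**Figure D5:**
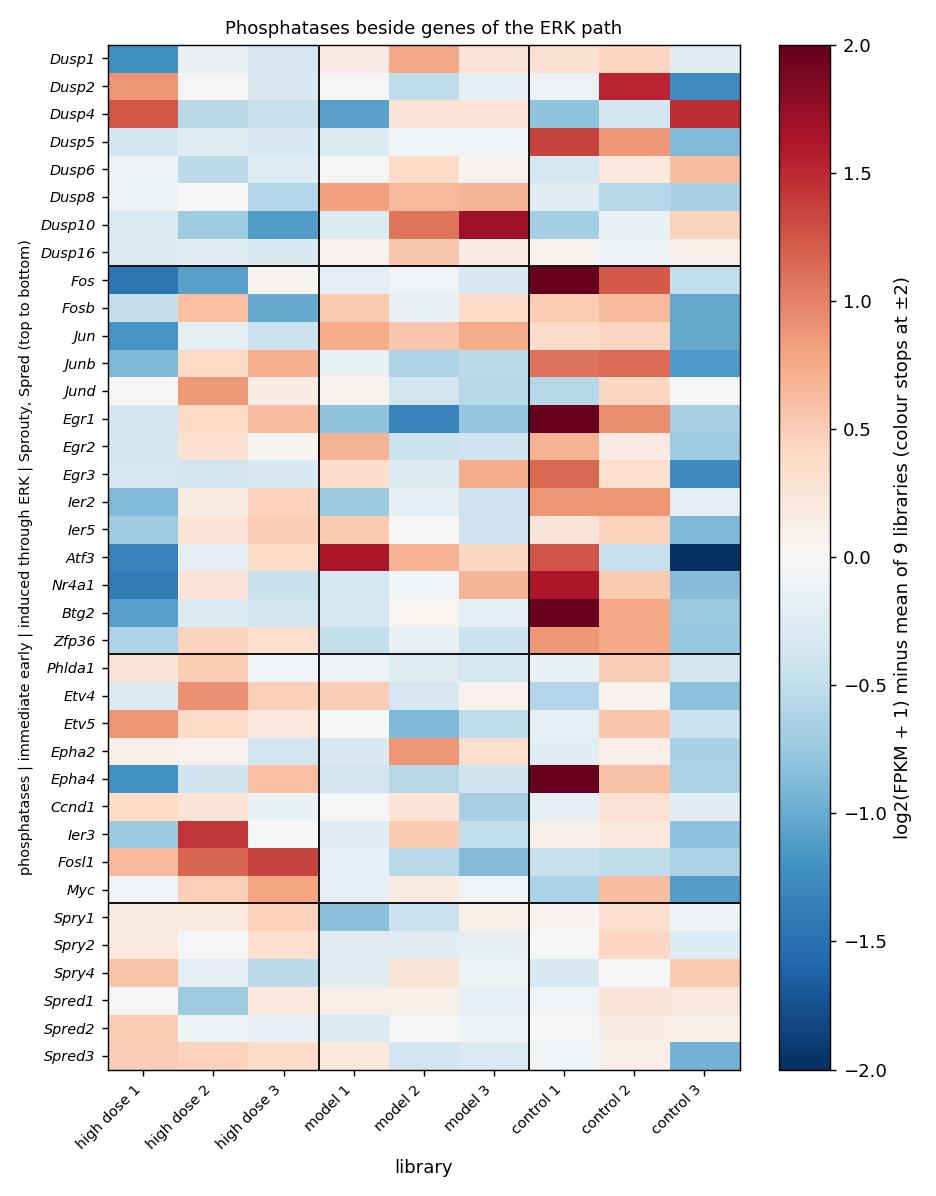
Heat map of log2(FPKM + 1) minus the mean of the 9 libraries, with the 8 phosphatases in the top block and immediate early genes, genes induced through ERK and Sprouty and Spred genes in the blocks under it, and libraries of high dose, model and control from left to right. The model columns of Dusp8 are above its mean while Fosl1 is above its mean in the 3 high dose columns, where it has 2.55 to 4.78 FPKM.

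Among the kinases themselves, 9 of 11 MAP kinases and 6 of 7 MAP kinase kinases were higher in sign in high dose against model, and 4 of 14 kinases above them were. Mapk10, the JNK gene of neurons, had 16.2, 4.21 and 2.99 FPKM in high dose, 0.0306, 0.0303 and 0.00861 FPKM in model and 3.32, 4.75 and 0.955 FPKM in control libraries, so that model was lowest without overlap. Its log2 difference was 2.80 ± 0.574 (SE) in high dose minus model (limma adjusted p = 0.172) and -1.83 ± 0.574 in model minus control (limma adjusted p = 0.701). With Mapk10 near 0 in the model libraries these sizes depend on the pseudocount, and at a pseudocount of 0.1 they were 5.61 and -4.40. Mapk8ip2, a JNK scaffold of neurons and endocrine cells, had 38.2, 4.64 and 0.247 FPKM in high dose, 0.147, 0.166 and 0.151 FPKM in model and 1.65, 7.46 and 2.72 FPKM in control libraries. Dusp26, an atypical phosphatase of nervous tissue, had 34.0, 17.4 and 1.61 FPKM in high dose, 0.714, 1.14 and 2.24 FPKM in model and 3.81, 12.6 and 3.96 FPKM in control libraries. Mapk10 and Mapk8ip2 were lowest in the 3 model libraries, as the chromaffin and sympathetic nerve sum given above was, and Dusp26 overlapped between high dose and model through high dose 3. The part of that tissue in their levels was not tested.

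Map3k3, a kinase above the ERK5 branch, had 16.8, 16.3 and 16.6 FPKM in high dose, 21.9, 25.6 and 21.5 FPKM in model and 18.1, 21.7 and 14.6 FPKM in control libraries, and differed by -0.44 ± 0.196 (SE) in high dose minus model (limma adjusted p = 0.373). Map2k4, which phosphorylates JNK, had 25.9, 14.2 and 13.8 FPKM in high dose against 12.4, 11.5 and 11.4 FPKM in model libraries (limma adjusted p = 0.406). Map2k7, which phosphorylates JNK alone, differed by -0.25 ± 0.199 (SE) in model minus control (limma adjusted p = 0.852). Ppm1b, a metal-dependent phosphatase, differed by -0.39 ± 0.224 (SE) in model minus control (limma adjusted p = 0.774). Ptprr, a tyrosine phosphatase of ERK, differed by 0.73 ± 0.523 (SE) in high dose minus model (limma adjusted p = 0.532), with high dose 1 at 6.63 FPKM and all other libraries at 2.48 FPKM or less. Dusp15, an atypical member, had 2.41, 3.68 and 0.298 FPKM in high dose against 0.0349, 0.101 and 0.0328 FPKM in model libraries (limma adjusted p = 0.308).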

How the data were processed

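RNA sequencing was done on 9 aortic arch libraries in 3 groups of 3, all of batch label 1. Groups came from the sample titles, and table columns AS, HD and the misspelt Contorl were matched by name to model, high dose and control. The authors deposited FPKM values, a unit relative to the library total, so that a few very abundant transcripts depress the rest. Per the labels' protocols, messenger RNA was purified from TRIzol extracts then made into NEBNext Ultra libraries. The builds GRCm38.p5 and mm10 are from the submitters' processing notes, while for aligner, counter and strandedness the answer is: not given in the sources used here.

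Whole fragments were recovered from the FPKM steps. All values of 17392 of 17398 genes (99.97%) came out whole within 0.02 fragments, and they gave the depths, fragment numbers and 95% exact Poisson intervals, which cover counting error only. Differences were fitted by limma (version 3.58.1, R 4.3.3) from log2(FPKM + 1) values, all 9 libraries in 1 model with a mean per group and a trended empirical Bayes variance, two-sided, with Benjamini-Hochberg adjustment over the 12895 genes with at least 1 FPKM in at least 3 libraries. Promoter sequences are from RefSeq on GRCm38.p6 and positions from GENCODE M21 on GRCm38.

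The text names all 8 members, Dusp7 and Dusp9, the 5 genes most correlated with Dusp8 and with Dusp1 among named genes of at least 2 FPKM on average, and in each of 9 pathway lists the gene of smallest p in model against control and in high dose against model. The members, lists and rule were chosen with earlier results of these data known. Alternatives were another pseudocount, no filter, median-ratio and quantile scaling, array weights, fits of 2 groups, a replicate block and leaving out each library. Limma's voom on the recovered fragments and leaving out libraries with over 100 FPKM of Myh6 were added after seeing the data.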

Additional observations from a re-analysis of the deposited data

How the results depend on the processing

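None of the 7 tested members had a limma adjusted p under 0.05 in any setting run. The lowest was 0.0513, for Dusp10 in model minus control with array weights. Its log2 difference was 1.60 there, against 0.95 with equal weights, 0.39 without the Myh6-high libraries and 0.52 to 1.51 when 1 library was left out. Over all settings Dusp1, Dusp10 and Dusp16 kept their sign in high dose minus model, at -1.63 to -0.64, -2.09 to -1.1 and -0.66 to -0.38. Dusp8 lay between -1.11 and -0.77 in high dose minus model and between 1.02 and 1.40 in model minus control. Its values chose the family, so these ranges describe the same libraries and lend no support. With 3 libraries a group and tissue that differs between them, a p that misses the threshold does not show that levels were alike.

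The count of genes called, 0 in each comparison, moved with some settings, and the cause was not tested. In high dose against model it was 6 with array weights, 1 with only these groups fitted, 591 (562 higher, 29 lower) without the Myh6-high libraries, and 0 to 46 when 1 library was left out, the 46 coming without high dose 3. In model against control it was 684 (261 higher, 423 lower) with array weights. In high dose against control it was 229 (228 higher, 1 lower) without the Myh6-high libraries, a fit with lone libraries in those groups. Voom on recovered fragments called 0 in all 3. Of the pathway genes named, those called without the Myh6-high libraries in high dose minus model were Mapk10 at 4.07 and Mapk8ip2 at 5.09 (limma adjusted p = 0.0036 for both), Dusp15 at 1.69 (0.022), and Jun at -1.86 and Ptprr at 2.01 (0.0308 for both). Those called with array weights in model minus control were Mapk10 at -2.03 (limma adjusted p = 0.042), Egr1 at -2.57 (0.0434) and Epha4 at -2.12 (0.0485). By voom Mapk10 was 7.88 in high dose minus model and -6.62 in model minus control.

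Some signs turned. In model minus control, Dusp2 was 0.052 with voom and 1.01 without the Myh6-high libraries, Dusp4 was 0.60 with array weights, Dusp5 was 0.74, against -0.59, without the Myh6-high libraries, Dusp6 was 0.032 with quantile scaling and 0.36 with array weights, and Dusp7, Epha4 (against -1.22) and Map2k7 were 0.36, 0.20 and 0.015 without the Myh6-high libraries. In high dose minus model, Dusp4 was -0.27 with array weights. In high dose minus control, Dusp2 was -0.026 with array weights, Dusp4 was 0.028 with quantile scaling, 0.33 with array weights and 0.07 with voom, and Dusp5 was 0.52 without the Myh6-high libraries. Dusp8 in high dose minus control was 0.55 without them, against 0.24. Leaving out 1 library at a time, Dusp2 ranged from -0.95 to 0.44, Dusp4 from -0.74 to 0.40, Dusp5 from -1.25 to -0.14, Dusp6 from -0.29 to 0.20 and Dusp7 from -0.35 to 0.1 in model minus control. Likewise Dusp4 ranged from -0.31 to 0.58 and Dusp7 from -0.45 to 0.071 in high dose minus model, and Dusp2 from -0.50 to 0.89 and Dusp4 from -0.60 to 0.67 in high dose minus control.

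Libraries of the same number shared only that number, with correlations of their deviations from the group means between -0.522 and 0.306, and with the replicate as a block 0 genes were called in each comparison.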
